A study of Danio rerio with 6 samples.

Results

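The livers of wild-type zebrafish larvae at 7 days after fertilization (dpf) are described here on their own, as a reference for the larval liver transcriptome. They were the 3 wild-type libraries of a series of 6, and all 21589 genes of the deposited count table were used in each. The series asked how liver mRNA levels differ between larvae that carry a foxn3 transgene and their wild-type brothers and sisters, and the 3 foxn3-transgenic libraries, of the same age and tissue, were not analysed here. The labels named no allele, treatment or strain for the wild-type larvae, so that the group is defined by genotype, tissue (liver) and age (7 dpf). The name the authors gave their gene table includes WIK, a zebrafish wild-type line. How many larvae went into a library, and whether the libraries came from separate clutches, was not stated. The spread between libraries reported below may therefore be technical in part. Total RNA was sequenced from one end in reads of 50 bases after a strand-preserving library preparation.

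The liver makes most plasma proteins, including the carriers of iron, lipids and vitamins, the clotting factors and the complement proteins. It also stores and releases glucose, breaks down amino acids, builds bile acids and lipoproteins, and inactivates foreign compounds. Most of this work is done by hepatocytes, while bile duct cells, sinusoidal endothelium, stellate cells, macrophages and blood cells make up the rest of the organ. In bulk RNA, a lower level of a cell type's genes can come from fewer of those cells or from less RNA per cell, and these cannot be told apart.

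The libraries held 10884596, 12214349 and 7732478 counts in the gene table for libraries 1, 2 and 3, with 24, 4 and 142 genes at 0. Levels are given as deposited FPKM, which are counts scaled to the length of the gene's exons and to the total of the library. The table did not hold all genes. The authors set 6 IDs apart for high counts and 10508 for low counts, and none of these IDs was in the count table. Of the 6 high IDs, the reference names paired apoa2, an apolipoprotein, fabp10a, the liver fatty acid binding protein that is a standard hepatocyte marker in zebrafish, and rn7sl1, the RNA of the signal recognition particle. The 3 others had no paired name. Every share given below is therefore a share of the counts in the table, and the levels of apoa2 and fabp10a were not analysed here. The limit stated for high counts was 50000, yet 13 genes of the table exceeded it in every wild-type library and 22 exceeded it in at least 1, so the basis on which the limit was applied is not known. Among the low IDs were arg1, the arginase gene, complement gene c1qc, and 22 genes of the lens and eye list.

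The tissue label was checked against 38 measured genes known as hepatocyte markers. Of these, 36 reached 1 FPKM in every library, against 67.1% of all genes, and the set took 13.2 ± 0.903% of counts (SD, n = 3). Their median over genes was 785 FPKM, against medians over all genes of 2.74, 3.05 and 2.65 FPKM in libraries 1, 2 and 3. The exceptions were slc10a1, a bile acid uptake carrier, with 1.15, 1.65 and 0.747 FPKM, and cps1, an entry enzyme of the urea cycle, with 0.712, 0.547 and 0.390 FPKM. Both exceptions were below the median of all genes in every library, whereas markers such as tfa, rbp4 and hnf4a were above it.

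Counts were concentrated in few genes. In total, 14482 genes (67.1%) reached 1 FPKM in every library, 3836 reached 10 FPKM, 645 reached 100 FPKM and 94 reached 1000 FPKM. The 10 most abundant genes took 15.4 ± 0.614% of counts (SD, n = 3), the top 100 took 38.9 ± 1.38% and the top 1000 took 71.9 ± 1.28%. It took 209, 229 and 191 genes to reach 50% of the counts of libraries 1, 2 and 3. Among the leading genes by counts were tfa with 3.88 ± 0.799%, the apolipoprotein B gene apobl (apobb.1) with 2.75 ± 0.657%, mt-co1 with 1.84 ± 0.0518% and fetub with 1.12 ± 0.106% (SD, n = 3 each). Counts grow with gene length. The largest single count, 381364 for apobl in library 1, came from a gene of 11500 bp, so genes are ranked by FPKM in what follows.

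The 40 entries of highest mean FPKM held 9 genes from the lists of secreted liver products, 6 metabolic enzymes and 3 ribosomal proteins. They also held 13 entries of the mitochondrial chromosome and 3 small structural RNAs. The gene ch211-234p6.10 (crp5) was among the 40 but in none of the lists. Transferrin-a (tfa), the plasma iron carrier, was the highest protein gene at 16230 ± 3350 FPKM (SD, n = 3), with 12609, 16859 and 19221 FPKM in libraries 1, 2 and 3. Library 1 was the low one for tfa. The next nuclear protein genes were apoc1l (apoc1), a small apolipoprotein of plasma lipoproteins, with 11037, 10022 and 13496 FPKM, and ch211-234p6.10 (crp5), a C-reactive protein gene, with 9047, 8856 and 9821 FPKM. The libraries of apoc1l and crp5 did not overlap. Lower than both in every library was fetub, the plasma protease inhibitor fetuin B, with 7465, 6295 and 7452 FPKM.

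**Figure D1:**
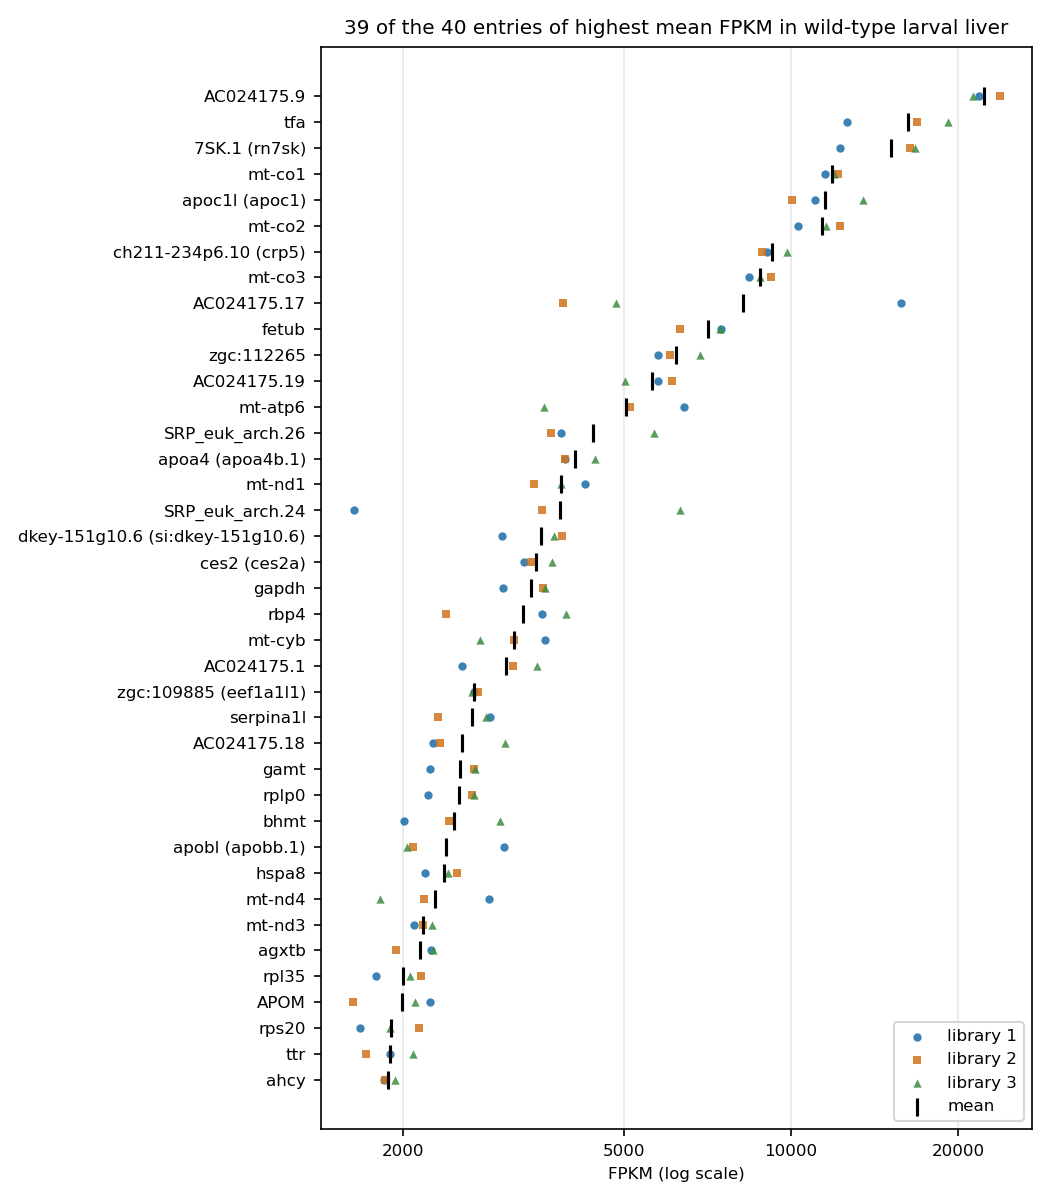
Of the 40 entries of highest mean FPKM in wild-type larval liver, 39 are shown, from highest at the top to lowest, with FPKM on a log scale; each library is a coloured point and the mean of 3 is a black tick. The wide gaps between libraries are those of AC024175.17, SRP_euk_arch.24 and mt-atp6, while eef1a1l1, mt-co1 and ahcy have nearly the same level in all 3.

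The order within the top 40 was firm at few places. Of the 39 steps from one rank to the next, the libraries of the 2 entries did not overlap at 3 and overlapped at 36, and the higher entry was above the lower in every library at 6. The steps without overlap were AC024175.9 over tfa, the small nuclear RNA 7SK.1 over mt-co1, and mt-co2 over crp5. The remaining neighbours did not differ beyond the spread between libraries.

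Some ranks depended on gene length. The deposited gene lengths ran from 3 to 100444 bp with a median of 2014 bp, 194 genes were shorter than 200 bp, and 31 of these short genes had at least 100 FPKM. The entry zgc:112265 had a length of 3 bp in the table, so 188, 222 and 159 counts gave it a mean of 6215 FPKM. In the same way AC024175.9, which has the highest mean FPKM of all (22325), spans 71 bp on the mitochondrial chromosome and starts where RefSeq places a serine tRNA. An alignment counted for a gene when it overlapped it by a single base, so reads of 50 bases that cover a neighbouring gene can be counted for entries this short. AC024175.9 lies on the minus strand from 7976 to 8046, while its neighbour mt-co1 lies on the plus strand and ends at 7975. The library preparation preserved strand, and whether the counting did so was not examined here. The part of reads from neighbouring genes in these levels was not tested.

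Genes of secreted liver products, 163 in 7 lists, took a mean of 19.9% of counts, with 20.5%, 18.5% and 20.9% in libraries 1, 2 and 3. Apolipoproteins and lipoprotein assembly led with 6.35 ± 0.754%, followed by iron and copper carriers with 4.18 ± 0.764%, plasma carriers and protease inhibitors with 3.99 ± 0.386%, coagulation and fibrinolysis with 2.81 ± 0.321%, and complement and acute phase genes with 2.33 ± 0.192%. No list held crp5, which alone took 0.783 ± 0.0431% of counts. With it, secreted products took 20.7%. Growth factors and their binding proteins took 0.274 ± 0.0288%. The 8 measured vitellogenins, egg yolk precursors made by the liver of mature females, took 0.00272 ± 0.00134%.

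Lipoprotein genes were spread over a wide range of levels. Beside apoc1l, apoa4 (apoa4b.1) had 3911, 3914 and 4423 FPKM, apobl (apobb.1) 3042, 2079 and 2031 FPKM, and APOM, a carrier of signalling lipids on lipoproteins, 2237, 1622 and 2101 FPKM. Library 1 stood highest for apobl, and libraries 2 and 3 lay close together. The gene apoa1 (apoa1a), the main protein of high-density lipoprotein, had 1711, 2408 and 1399 FPKM. The second apolipoprotein B gene, apob, had 827, 615 and 729 FPKM, and MTTP, whose product loads lipid onto apolipoprotein B, had 186, 213 and 186 FPKM. Levels of apobl exceeded those of apob in every library. Of the 21 lipoprotein genes with at least 100 summed counts, 1 had a highest library over 2-fold its lowest in counts scaled to library totals, against 17.5% of all 13855 genes with that many counts.

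In the iron list, tfa alone held most of the counts. Ferritin heavy chain fth1a, the intracellular iron store, had 543, 873 and 791 FPKM, and ceruloplasmin (cp), a copper protein that oxidizes iron, had 512, 278 and 322 FPKM. Hepcidin (hamp1), the liver hormone that lowers iron export into plasma, had 672, 107 and 273 FPKM. Its highest library was 6.28-fold its lowest. In library 1, hamp1 and cp were at their highest and tfa and fth1a at their lowest.

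Among plasma carriers, rbp4, the retinol carrier, had 3551, 2389 and 3933 FPKM, and its partner in plasma ttr, the thyroid hormone carrier, had 1889, 1714 and 2084 FPKM. The antitrypsin gene serpina1l had 2864, 2305 and 2819 FPKM, and the vitamin D carrier gc had 1869, 1772 and 1976 FPKM. Library 2 was the lowest for all 4 of these carriers and inhibitors. Fetuin B, antitrypsin and these carriers all had coefficients of variation (CV, the SD over the mean) under 30%.

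Clotting genes were led by the fibrinogen chains and by antithrombin. Fibrinogen gamma (fgg) averaged 1610 ± 266 FPKM, beta (fgb) 1111 ± 111 FPKM and alpha (fga) 749 ± 102 FPKM (SD, n = 3 each). In each library fgg was above fgb and fgb above fga, although the 3 chains join in equal numbers in the finished protein. The antithrombin gene serpinc1 averaged 1403 ± 106 FPKM, plasminogen (plg) 981 ± 112 FPKM and prothrombin (f2) 778 ± 49.2 FPKM. The fibronectin gene fn1b varied most of the abundant clotting list members, with 666, 283 and 397 FPKM.

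Complement genes stood at moderate levels, with C3 (c3a.1), the central component, at 1229 ± 152 FPKM and c9, the pore-forming component, at 1091 ± 172 FPKM (SD, n = 3 each). Factor B (cfb), which forms the alternative pathway convertase, had 699, 689 and 766 FPKM, and its regulator cfh had 438, 389 and 411 FPKM. Further C-reactive protein genes, ch211-234p6.13 (crp2) and ch211-234p6.12 (crp3), had 864 ± 32.9 and 708 ± 134 FPKM. Levels of crp2 overlapped those of crp3, and both were far under crp5 in every library. The factor H-like gene cfhl2, named after its values were seen, had 20, 3171 and 2035 counts, equal to 0.772, 109 and 111 FPKM. Library 1 was thus far below the others, the widest gap of any gene of the secreted lists with at least 100 summed counts. Factor H genes resemble each other, so the split of reads between them is uncertain. Of the 44 complement and acute phase genes, 35 reached 1 FPKM in every library, against 67.1% of all genes, and 16 reached 100 FPKM, against 2.99%.

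In the growth factor list, the binding proteins igfbp2a and igfbp1a had 407 ± 30.3 and 290 ± 102 FPKM, and the ligands igf2a and igf2b had 103 ± 18.7 and 81.1 ± 20.8 FPKM (SD, n = 3 each). Both of these binding proteins, and igfbp2b with 166, 122 and 124 FPKM, were above both ligands in every library. The binding proteins igfbp1b, igfbp5b and igfbp3 averaged 56.3, 6.22 and 3.43 FPKM, below the mean of either ligand. Values of igfbp1a were 392, 290 and 187 FPKM in libraries 1, 2 and 3. The gene igf1, the main growth hormone target in mammalian liver, had 5, 14 and 13 counts, or 0.371, 0.925 and 1.36 FPKM. Angiotensinogen (agt), the precursor of the angiotensin peptides, had 475, 279 and 346 FPKM. In vitellogenins, vtg7 had 322, 96 and 76 counts, equal to 7.13, 1.89 and 2.37 FPKM, and the other 7 had mean levels under 1 FPKM.

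Metabolic enzymes and their carriers took 15.2 ± 0.921% of counts over 512 genes (SD, n = 3), with 14.4%, 14.9% and 16.2% in libraries 1, 2 and 3. Glucose, fructose and glycogen enzymes held 4.07 ± 0.254%, amino acid breakdown and the urea cycle 2.64 ± 0.253%, the methionine, serine and folate cycles 1.55 ± 0.132%, conjugating and other detoxifying enzymes 1.48 ± 0.0746% and cytochrome P450 genes 1.22 ± 0.124%. Fatty acid oxidation held 0.764 ± 0.0834%, cholesterol synthesis 0.497 ± 0.109% and fatty acid and triglyceride synthesis 0.355 ± 0.0512%. The plot of class shares sets these beside the secreted and housekeeping classes.

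**Figure D2:**
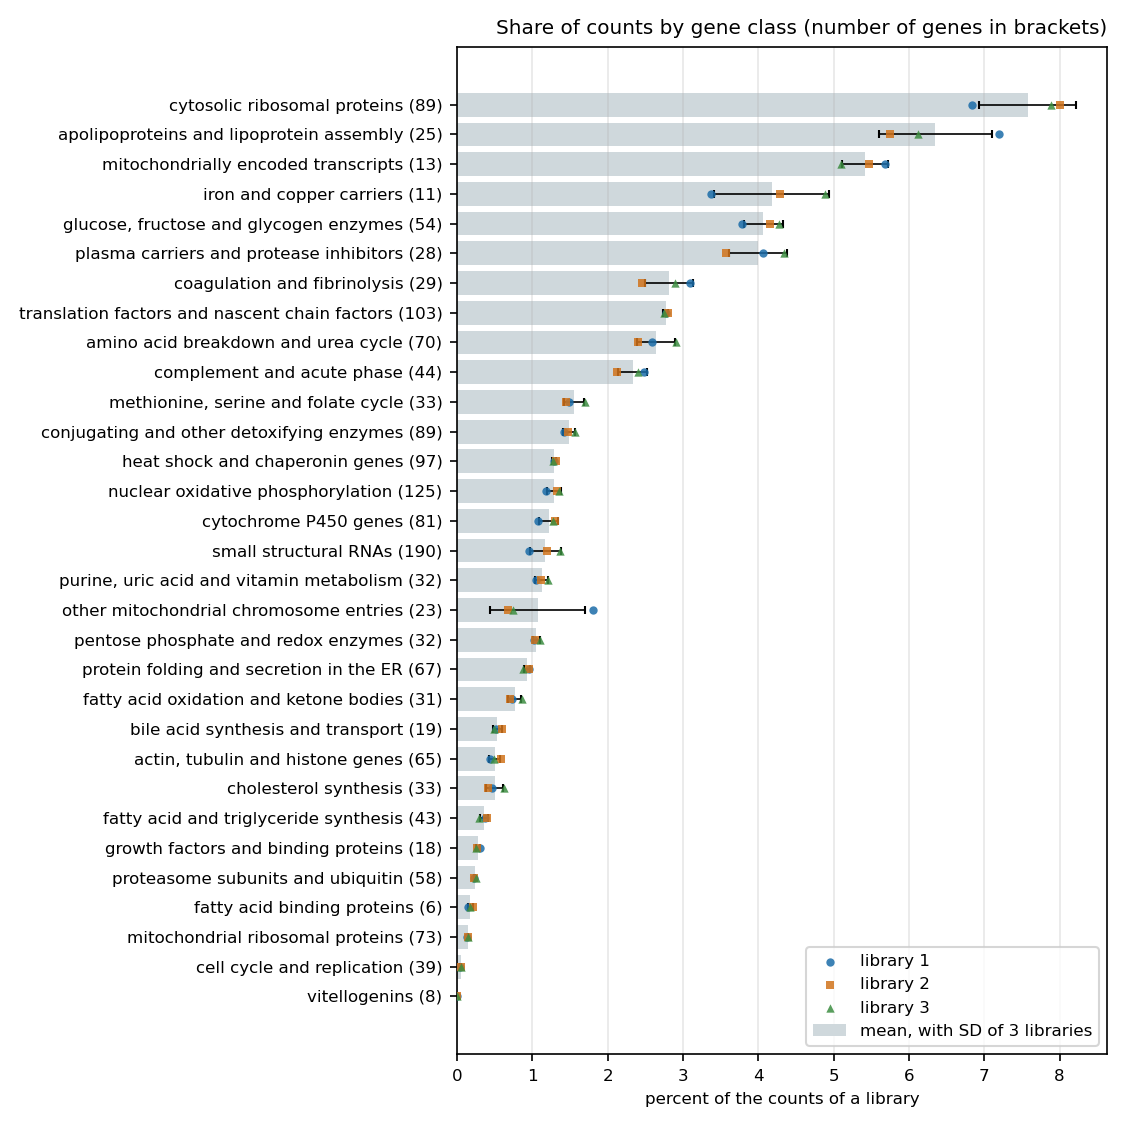
Share of each library's counts taken by secreted, metabolic, housekeeping and RNA classes; grey bars are means with SD of 3 libraries, coloured points are the libraries, and the number of genes of each list is in brackets. Ribosomal proteins (7.58%), lipoprotein genes (6.35%) and mitochondrially encoded transcripts (5.42%) are the 3 longest bars, and the entries on the mitochondrial chromosome that code for no protein show library 1 far above the others.

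In glucose metabolism gapdh, the glycolytic dehydrogenase, was among the most abundant genes, with 3031, 3573 and 3598 FPKM. The enzyme PKLR, the liver pyruvate kinase of glycolysis, averaged 1444 ± 193 FPKM and fbp1b, the fructose bisphosphatase of gluconeogenesis, 1410 ± 227 FPKM (SD, n = 3 each), and their libraries overlapped. Of the glycogen enzymes, phosphorylase PYGL had 785, 557 and 624 FPKM, and synthase gys2 had 417, 336 and 438 FPKM. The glucose carrier slc2a2 was even, with 249, 239 and 259 FPKM. The carboxykinase genes pck2, of the mitochondrial enzyme, and pck1, of the cytosolic one, had 570 ± 34.1 and 318 ± 130 FPKM. Here pck1 was the uneven one, with 350, 429 and 176 FPKM. Glucokinase (gck), which traps glucose in hepatocytes, had 143, 90.1 and 96.3 FPKM, and glucose-6-phosphatase g6pca (g6pc1a.1), which releases it, had 285, 186 and 200.3 FPKM. Both were highest in library 1. So was ugp2a, which makes UDP-glucose, with 663, 187 and 219 FPKM.

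Amino acid enzymes were led by agxtb, an alanine-glyoxylate transaminase of glyoxylate removal, at 2146 ± 180 FPKM (SD, n = 3), then aldh6a1, of valine breakdown, at 1105 ± 161 FPKM, and tdo2a, the first enzyme of tryptophan breakdown, at 1001 ± 187 FPKM. The tyrosine enzyme zgc:56326 (hpda) averaged 761 ± 152 FPKM. For aldh6a1, tdo2a and hpda, library 3 was the highest. Library 3 was also highest for 36 of the 62 amino acid genes with at least 100 summed counts, against 28.4% of all genes tested, while 3 of the 62 spread over 2-fold, against 17.5%.

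The methionine cycle held some of the most abundant enzymes. Betaine-homocysteine methyltransferase (bhmt) had 2003, 2416 and 2990 FPKM, S-adenosylhomocysteine hydrolase (ahcy) had 1847, 1852 and 1931 FPKM, and the liver methionine adenosyltransferase mat1a had 860, 832 and 999.9 FPKM. These are the enzymes that remake methionine, clear its methyl-transfer product and activate it. The creatine-forming methyltransferase gamt, a user of activated methionine, had 2233, 2677 and 2689.8 FPKM. Of the 4, ahcy had the narrowest spread and bhmt the widest.

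Lipid genes were lower. The oxidation list was led by acaa2, the last enzyme of mitochondrial beta-oxidation, at 466 ± 65.6 FPKM, and acat1, of ketone body metabolism, at 439 ± 77.6 FPKM (SD, n = 3 each). Of its 31 genes, 0 spread over 2-fold, against 17.5% of all genes, and 25 were highest in library 3, against 28.4%. Triglyceride synthesis was led by dgat2, of its last step, with 288, 236 and 172 FPKM. The regulator LPIN1 had 80.5, 149 and 29.3 FPKM. In cholesterol synthesis the rate-limiting enzyme hmgcra had 302, 222 and 261 FPKM, while hmgcs1, one step before it, had 123, 102 and 255 FPKM and msmo1 (sc4mol), of the later sterol steps, had 76.2, 80.5 and 149 FPKM. In this list 22 of 30 genes were highest in library 3, against 28.4% of all genes, and 1 was highest in library 2, against 37.2%.

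Bile acid genes included scp2 (scp2a), a sterol carrier and thiolase, at 907 ± 44.1 FPKM and zgc:92111 (slc51a), an export carrier subunit, at 408 ± 19.8 FPKM (SD, n = 3 each). The rate-limiting enzyme cyp7a1a had 223, 460 and 166 FPKM and cyp8b1, the 12-alpha-hydroxylase, 109, 144 and 121 FPKM. Library 2 was the high one for both. Of the cytochrome P450 genes, cyp2ad2 was the most abundant with 879, 1163 and 1191 FPKM, and cyp1a, induced through the aryl hydrocarbon receptor, had 437, 311 and 518 FPKM. The carboxylesterase ces2 (ces2a), which splits ester bonds in lipids and foreign compounds, had 3302, 3396 and 3710 FPKM, the highest of the detoxifying list. Urate oxidase (uox), lost in humans, had 1459, 1705 and 1916 FPKM, and the retinol binding genes rbp2b and rbp2a averaged 1435 ± 315 and 625 ± 40.2 FPKM. Among fatty acid binding proteins of the table, fabp3 was the highest at 1345 ± 150 FPKM.

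Housekeeping lists of 723 genes took 20.1 ± 0.656% of counts (SD, n = 3). Cytosolic ribosomal proteins held 7.58 ± 0.643%, with 6.84%, 8.004% and 7.89% in libraries 1, 2 and 3. Their 89 genes had a median of 961 FPKM, and 83 reached 100 FPKM in every library, against 2.99% of all genes. The gene rplp0, of the ribosomal stalk, led with 2212, 2660 and 2682 FPKM. Library 1 was the lowest of the 3 for rplp0 and for the class sum, and 2 of the 89 list members were highest in it, against 34.4% of all genes tested. These include RPS6KL1, a kinase that the list took in by its symbol. Translation factors held 2.77 ± 0.0305%, the most even class sum. The elongation factor zgc:109885 (eef1a1l1) alone had 2677, 2725 and 2655 FPKM. The chaperone hspa8 had 2185, 2502 and 2412 FPKM. Genes for protein folding and secretion in the endoplasmic reticulum held 0.927 ± 0.0403%, led by ppib, a prolyl isomerase, and p4hb, the protein disulfide isomerase, at 574 ± 25.6 and 562 ± 11.2 FPKM. Proteasome and ubiquitin genes held 0.232 ± 0.0117%. Cell cycle and replication genes held 0.0489 ± 0.00890%, with the replication clamp pcna at 24.95, 40.6 and 38.5 FPKM. Library 1 was the lowest for pcna.

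The 13 protein genes of the mitochondrial chromosome took 5.42 ± 0.300% of counts (SD, n = 3). Cytochrome oxidase subunit mt-co1 had 11497, 12154 and 11935 FPKM, mt-co2 had 10307, 12273 and 11580 FPKM, and mt-co3 had 8398, 9200 and 8792 FPKM. For these 3 subunits library 1 was the lowest. It was the highest for mt-atp6, a subunit of ATP synthase, with 6403, 5117 and 3583 FPKM, and for mt-nd4 of complex I with 2851, 2181 and 1816 FPKM. So the balance among transcripts of the same chromosome shifted between libraries, and library 1 led for 9 of the 13, against 34.4% of all genes. Nuclear genes of oxidative phosphorylation, 125 in number, held 1.29 ± 0.0932%.

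The other 23 entries of that chromosome code for no protein and took 1.80%, 0.671% and 0.739% of counts in libraries 1, 2 and 3. Most of the gap came from AC024175.17, which starts where RefSeq places the small mitochondrial ribosomal RNA mt-rnr1 and has its length of 952 bp. It had 163993, 45272 and 35646 counts, which is 15803, 3888 and 4837 FPKM, and library 1 was 3.27-fold above the higher of the other two. All 36 entries of the chromosome start where RefSeq places a gene, and the single RefSeq gene of 37 with no entry is mt-rnr2, the large ribosomal RNA. Of the small structural RNAs, which took 1.17 ± 0.209%, 7SK.1 (rn7sk), a regulator of transcription elongation, had 12248, 16403 and 16734 FPKM. A signal recognition particle RNA copy, SRP_euk_arch.24, had 1629, 3555 and 6297 FPKM. Copies of this RNA are near-identical, so the split of reads between them is uncertain.

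Regulators of the hepatocyte took 0.524 ± 0.0376% of counts over 77 transcription factor and receptor genes (SD, n = 3). Of 57 transcription factor genes, 51 reached 1 FPKM in every library, against 67.1% of all genes, and 2 reached 100 FPKM, against 2.99%. Their median was 14.8 FPKM. The highest were xbp1, a driver of secretory capacity, with 148, 183 and 158 FPKM, and klf15, a fasting-responsive factor in mammals, with 133, 144 and 102 FPKM. Core liver identity factors followed. The nuclear receptor hnf4a had 67.9, 72.0 and 62.5 FPKM, cebpb 65.8, 59.3 and 68.0 FPKM, the bile acid receptor nr1h4 45.6, 42.4 and 52.3 FPKM, and cebpa 38.3, 36.5 and 26.7 FPKM. The libraries of hnf4a and cebpb overlapped, and both were above nr1h4 and cebpa in every library.

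Of the pioneer factors that open liver chromatin, foxa2 averaged 31.1 ± 4.52 FPKM, foxa1 15.1 ± 3.59 FPKM and foxa3 14.8 ± 2.55 FPKM (SD, n = 3 each). Here foxa2 was the highest in every library, and foxa1 and foxa3 overlapped. The factor hnf1ba averaged 28.0 ± 4.21 FPKM. The lipid-sensing receptor nr1h3 was the most even regulator named, with 24.2, 23.7 and 23.2 FPKM. The lipogenic regulators srebf1, at 5.81 ± 1.53 FPKM, and MLXIPL, the glucose-responsive factor, at 5.44 ± 2.06 FPKM, averaged less than the list median of 14.8 FPKM. The factor srebf2, of cholesterol synthesis, averaged 11.7 ± 4.15 FPKM. Above the list median was the receptor pparg, with 25.5, 30.5 and 20.9 FPKM. The gene pparaa, a driver of fatty acid oxidation, averaged 8.05 FPKM. For foxn3, the gene of the series, wild-type libraries had 10.6, 7.68 and 15.9 FPKM, a 2.07-fold range.

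**Figure D3:**
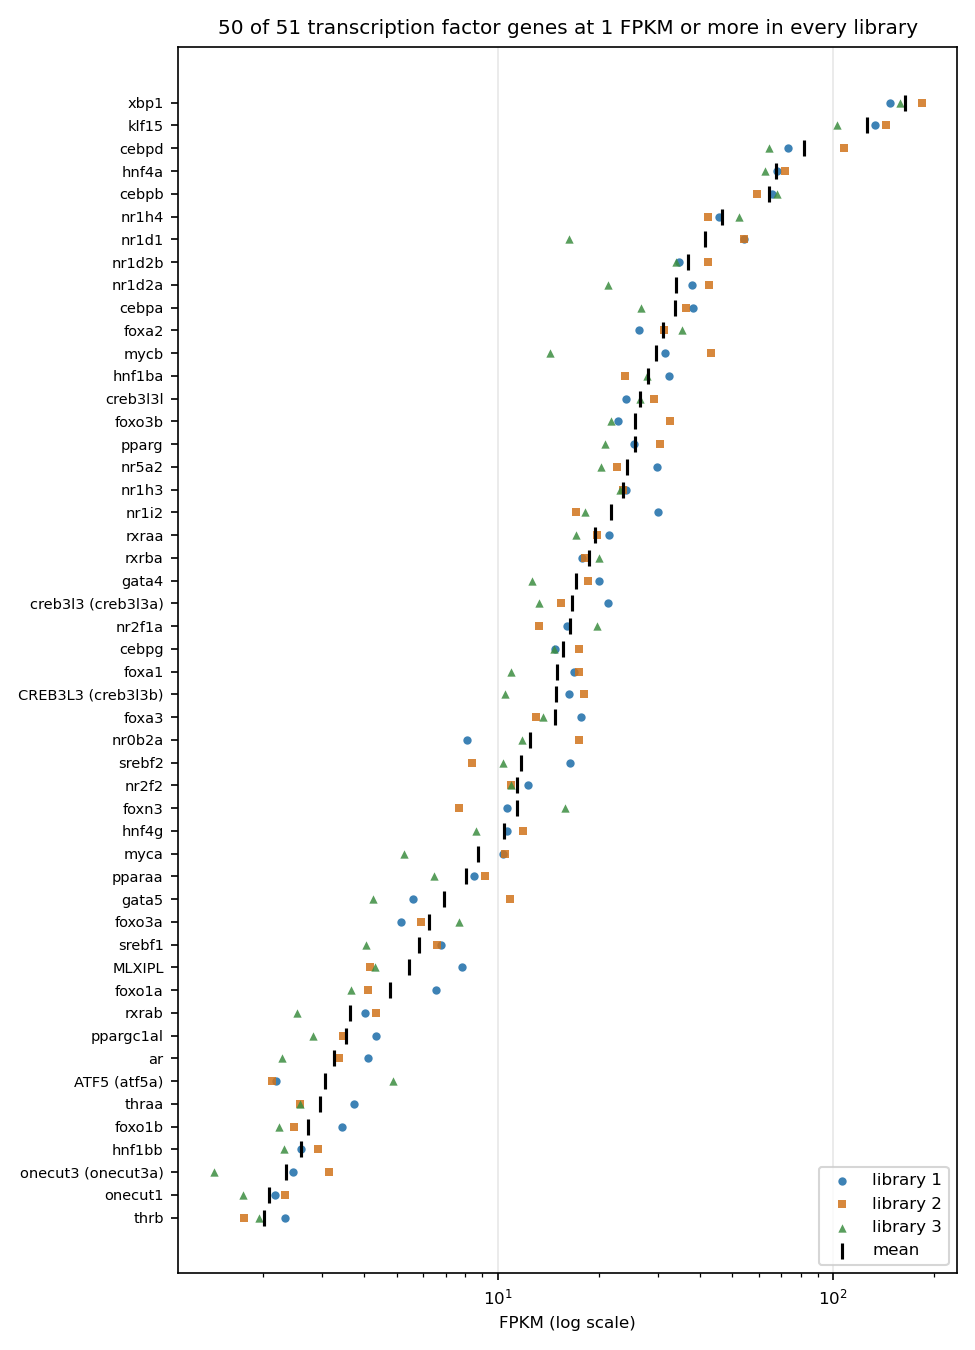
FPKM on a log scale of 50 of the 51 transcription factor genes that reached 1 FPKM in every wild-type library, ordered by mean; coloured points are libraries and black ticks are means of 3. Library 3 is set apart to the left for nr1d1 (16.3 FPKM against 54.1 and 54.1 in libraries 1 and 2) and mycb, while nr1h3 and hnf4a show little scatter.

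Receptors of the hepatocyte surface ran from CLEC4G (asgrl1) at 269 ± 25.5 FPKM and the LDL receptor ldlr (ldlra) at 146 ± 12.05 FPKM down to egfra at 1.27 ± 0.167 FPKM (SD, n = 3 each). The growth hormone receptors ghrb and ghra averaged 35.0 ± 8.37 and 22.9 ± 6.28 FPKM. The insulin receptors insra and insrb averaged 16.4 ± 3.72 and 11.97 ± 2.62 FPKM, and the glucagon receptor GCGR (gcgrb) had 7.13, 4.07 and 4.03 FPKM. Libraries of the insulin receptor copies overlapped.

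Marker lists of other cell types and tissues took 1.81 ± 0.796% of counts over 383 genes (SD, n = 3), with 1.34%, 2.73% and 1.37% in libraries 1, 2 and 3. Library 2 was the high one. Bile duct markers took 0.261%, 0.409% and 0.275%, led by anxa4, an annexin, with 547, 512 and 588 FPKM and the keratin krt8 with 265, 393 and 306 FPKM. Stellate cell and fibroblast markers took 0.0747%, 0.134% and 0.0669%. Library 2 was the highest for both sums. In the bile duct list the keratin krt4 had 134, 542 and 131 FPKM. By contrast anxa4, hnf1ba (32.3, 23.9 and 27.9 FPKM) and sox9b (4.57, 3.39 and 3.96 FPKM) were lowest in library 2. Of the 16 bile duct genes with at least 100 summed counts, 10 were highest in library 2, against 37.2% of all genes tested. Endothelial markers took 0.0675 ± 0.00401%, with 0.0689%, 0.0707% and 0.0630% in libraries 1, 2 and 3. Among them, the vascular growth factor receptor kdrl had 22.1, 18.1 and 20.7 FPKM and the junction cadherin cdh5 19.7, 15.7 and 18.2 FPKM. Both genes were lowest in library 2, unlike the list sum. Of the 31 endothelial genes with at least 100 summed counts, 14, 16 and 1 were highest in libraries 1, 2 and 3. The shares over all genes tested were 34.4%, 37.2% and 28.4%. Macrophage and neutrophil markers took 0.0634%, 0.0676% and 0.0340% in libraries 1, 2 and 3. Their leading gene lgmn, a lysosomal protease with 183, 196 and 79.9 FPKM, is not particular to those cells, and lyz, lysozyme, had 14.6, 6.51 and 8.78 FPKM. Erythrocyte markers took 0.0261%, 0.0544% and 0.0459%, and the embryonic globin hbae3 had 69.3, 266 and 238 FPKM. Library 1 was the lowest for globin. Lymphocyte markers took 0.00290 ± 0.000481% and lens and eye markers 0.00503 ± 0.00166%.

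**Figure D4:**
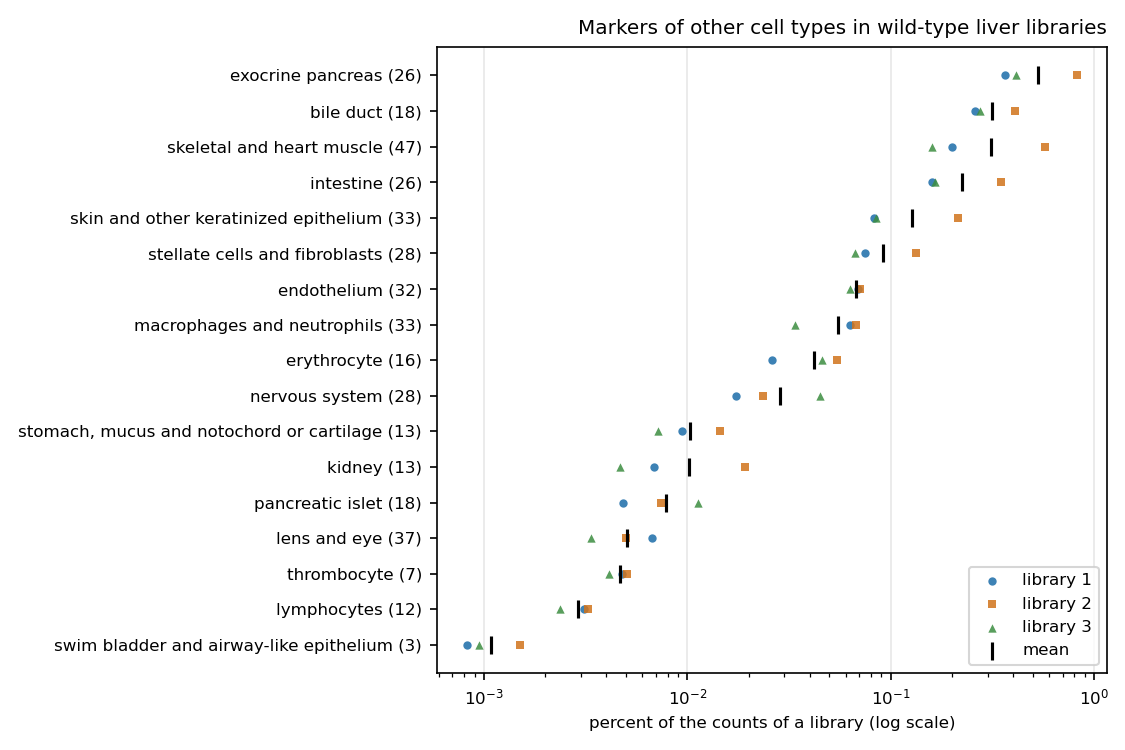
Summed share of counts, on a log scale, of 17 marker lists of other cell types and tissues in the 3 wild-type liver libraries, with the number of genes in brackets and black ticks at the means. Library 2 is to the right for exocrine pancreas, muscle, intestine and skin, and library 3 for nervous system and for islet. Within the islet list, the insulin gene ins is nonetheless highest in library 2. The 3 points nearly coincide for endothelium and thrombocytes.

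Sums of the marker lists of further organs and tissues differed by library. The source of these transcripts was not tested. Exocrine pancreas markers took 0.364%, 0.820% and 0.412% of counts in libraries 1, 2 and 3, or 0.388% on average without library 2. The trypsinogen genes FP102797.1 (prss59.2) and try (prss1) had 613, 1387 and 639 FPKM and 572, 1322 and 628 FPKM. Muscle markers took 0.199%, 0.575% and 0.159%, or 0.179% without library 2, led by cardiac-type actin actc1b with 180, 401 and 154 FPKM. Intestine markers took 0.159%, 0.348% and 0.166%, and 0.162% without library 2. The ileal bile acid binding protein fabp6 had 5.80, 315 and 6.64 FPKM, and the peptide carrier slc15a1b had 7.34, 62.5 and 4.28 FPKM. Skin markers took 0.0829%, 0.214% and 0.0847%, 0.0838% without library 2. Nervous system markers ran otherwise, with 0.0173%, 0.0235% and 0.0452%, or 0.0204% without library 3. All 3 libraries held trypsinogen at over 500 FPKM and muscle actin at over 100 FPKM. Part of the intestine list is also made by liver: apoa4b.2 had 797, 775 and 943 FPKM and did not follow the other intestine genes. With 9646, 10533 and 8108 counts, apoa4b.2 was the largest member of that list in every library. The next, fabp2, had 3958, 10085 and 2930 counts. The intestine sums of libraries 1 and 3, and the mean without library 2, therefore rest largely on apoa4b.2.

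The spread between libraries was measured for 13855 genes with at least 100 summed counts. The median CV of FPKM was 17.4%, against 8.41% from counting error alone, and 11593 genes (83.7%) exceeded their own counting error. With 3 libraries, some genes would exceed it by counting alone, and that share is not given here. In 2419 genes (17.5%) the highest library was over 2-fold the lowest in counts scaled to library totals (CPM). The share over 2-fold was 26.97% for the 5184 genes with a mean count under 100 and 13.2% for those with 100 to 300. It was 10.2% for those with 300 to 1000, 10.2% for those with 1000 to 3000 and 10.9% for those with 3000 to 10000. For the 153 genes at 10000 or more it was 3.27%. The median CV was still 11.6% in those 153 genes, where counting error was 0.761%. The common biological CV was 26.7%. It was fitted to counts of another set of genes, the 17171 that passed a filter on low counts.

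**Figure D5:**
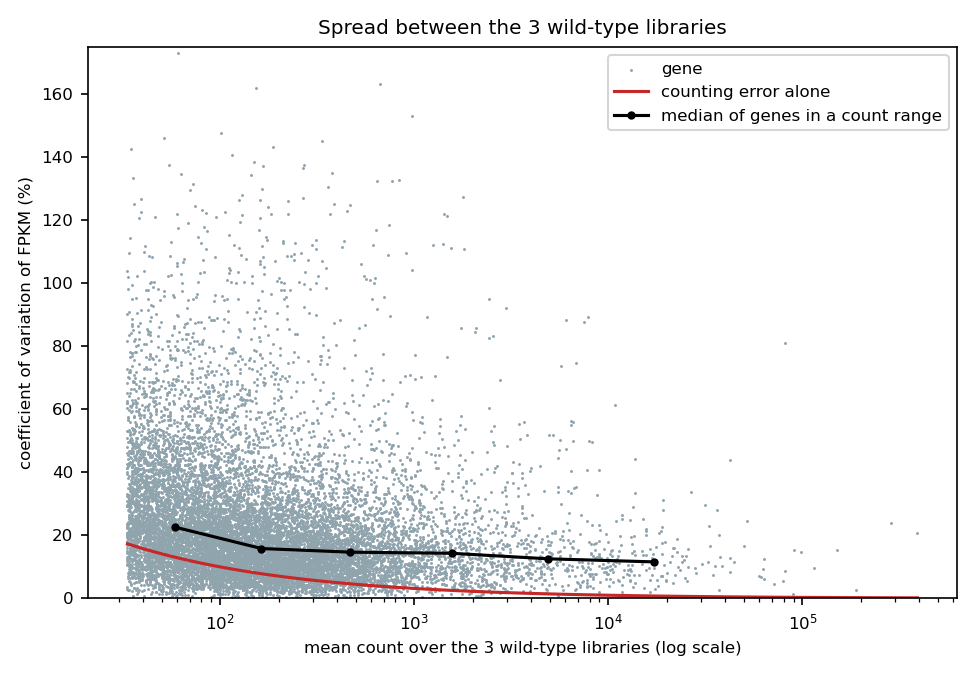
Coefficient of variation of FPKM between the 3 wild-type libraries, in percent, against the mean count on a log scale, for 13855 genes (grey points); the red line is counting error alone and the black line joins medians of genes by count range. The medians lie above the counting line throughout and level off at 11.6% for the most abundant genes.

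Lists differed in how many of their genes spread over 2-fold, against the 17.5% of all genes tested. Cytosolic ribosomal proteins had 0 of 89 and proteasome genes 0 of 51. Mitochondrial ribosomal proteins had 1 of 72, pentose phosphate and redox enzymes 1 of 32, and amino acid enzymes 3 of 62. Transcription factors had 7 of 54 and cytochrome P450 genes 16 of 64. Among other tissues, muscle had 40 of 41, intestine 21 of 22, exocrine pancreas 20 of 22, islet 6 of 7 and nervous system 15 of 19, but endothelium 3 of 31 and thrombocytes 0 of 3. List members differ in abundance, which moves this share as given above.

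The most even of the 1236 genes with a mean count of 1000 or more were aars, the alanyl-tRNA synthetase, with 43.5, 43.5 and 43.6 FPKM, and agxt2l1 (ETNPPL), a phosphoethanolamine lyase, with 246, 245 and 247 FPKM. Close to them were the growth-related gene pa2g4b with 47.2, 47.1 and 47.6 FPKM, kdelr2 (kdelr2a), which returns chaperones to the endoplasmic reticulum, with 85.8, 86.6 and 85.3 FPKM, and the epithelial cadherin cdh1 with 64.2, 64.4 and 63.5 FPKM. Their CVs ran from 0.167% to 0.757%. With 3 libraries some genes come out this even by counting alone, since counting error at these abundances is larger than the observed CV. At the other end, the 86 bp entry BX548011.7, with 0, 0 and 183 counts, had a CV of 173%, fabp6 had a CV of 163%, the short entry AL935186.4 of 92 bp had 162%, and BX927362.1 (eevs) had 153%.

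Library 2 stood over 2-fold above both others in 605 genes, 4.37% of those tested, and over 2-fold below both in 10 genes (0.0722%). Of the lists, on the high side, intestine had 20 of 22 such genes, muscle 34 of 41, skin 16 of 30, stellate cells and fibroblasts 10 of 21 and exocrine pancreas 9 of 22. After fabp6, the largest ratios were those of slc10a2, the ileal bile acid uptake carrier, with 0.652, 12.5 and 0.707 FPKM, 17.7-fold above the next library, and of the protease gene ctsl.1 with 2.99, 59.8 and 4.22 FPKM. Another fatty acid binding gene, CT027631.2, paired with the symbol FABP1 in the reference, had 28.8, 280 and 23.0 FPKM. Cartilage collagen col10a1 had 1.45, 17.3 and 1.23 FPKM, and the claudin cldn15la 4.36, 49.3 and 3.73 FPKM. Metabolic lists also had members here, with 5 of 64 for cytochrome P450 genes and 4 of 18 for bile acid genes, among them fabp6, which the intestine list holds too. The part of other tissues in the library 2 values of such genes was not tested.

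Library 3 stood over 2-fold above both others in 249 genes (1.80%) and over 2-fold below both in 335 genes (2.42%). Nervous system markers accounted for 12 of 19 and islet markers for 4 of 7 on the high side. Further neuronal genes, outside those lists, were among the largest ratios. The neuronal sodium pump subunit atp1a3a had 2.52, 2.74 and 12.97 FPKM, and the glutamate receptor gria2b 1.17, 1.05 and 5.14 FPKM. These genes stayed under 15 FPKM in every library, and libraries 1 and 2 were alike. The islet list holds scg2b, a granule protein that neurons make too, with 1.67, 2.31 and 10.3 FPKM, whereas insulin (ins) had 2.46, 13.5 and 0.799 FPKM. Among the islet members under 100 summed counts, the glucagon gene gcga had 1.02, 2.39 and 0.481 FPKM and the somatostatin gene sst1.1 had 1.46, 3.42 and 1.68 FPKM. The hormone genes ins, gcga, gcgb, sst1.1, sst1.2 and sst2 and the islet factor pdx1 were all highest in library 2, as were the exocrine enzymes. Some of these had few counts, such as gcgb with 9, 20 and 3 and sst2 with 7, 14 and 5. Other members went otherwise. The factors neurod, with 2.01, 2.67 and 4.21 FPKM, and isl1, with 1.51, 1.92 and 2.19 FPKM, were highest in library 3. So was the hormone gene ghrl, with 3, 5 and 4 counts, while pax6b was highest in library 1. The 7 islet members with at least 100 summed counts hold neurod and isl1, and none of the genes named as highest in library 2.

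On the low side of library 3 were 8 of 41 muscle and 8 of 22 intestine markers. Also there were 6 of 37 clock genes and 5 of 32 immediate early genes, from 2 lists added after the values had been seen. Of the same 32 immediate early genes, 8 stood over 2-fold above both others in library 2, against 4.37% of all genes tested. In all, 26 of the 32 were highest in library 2, against 37.2%. The clock repressor nr1d1 had 54.1, 54.1 and 16.3 FPKM, its relative nr1d4b 9.49, 3.75 and 0.461 FPKM, and per1a 14.3, 15.2 and 6.35 FPKM. The activators arntl1a, with 4.89, 5.10 and 8.06 FPKM, and clock, with 2.77, 2.59 and 3.42 FPKM, were highest in library 3. The immediate early gene fos had 191, 141 and 12 counts, equal to 10.3, 6.78 and 0.912 FPKM. Times of collection were not given in the sources used here, and their part in these values was not tested.

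Library 1 stood over 2-fold above both others in 79 genes (0.570%) and over 2-fold below both in 165 genes (1.19%). The largest ratio was that of BX927362.1 (eevs), whose product begins the synthesis of the sunscreen compound gadusol in fish, with 2710, 123 and 84 counts, or 140, 5.65 and 6.09 FPKM, 22.9-fold above the next library. The gene beside it, zgc:113054, had 248, 51.7 and 61.0 FPKM and was 4.07-fold higher. In the coordinates of the Zv9 build, eevs lies on chromosome 6 from 43369376 to 43380209 and zgc:113054 from 43381521 to 43406057. Of the 25 genes with the largest ratios in library 1, another neighbouring pair was zgc:113828 and CR559930.2 on chromosome 5, with 4.60-fold and 3.39-fold. A further group was 3 signal recognition particle RNA copies on chromosome 11, between 12271254 and 12295736. These groups were chosen after their values were seen. Below both others, library 1 had 15 of 61 genes of the actin, tubulin and histone list. Of the 23 genes described as histones by their product name and with at least 100 summed counts, 19 were lowest in library 1, against 31.0% of all genes. One was HIST1H4H with 17.6, 40.9 and 37.3 FPKM. Histone genes that the table names only by clone are not among the 23. Of these, zgc:110380 (histh1l1), the most abundant histone of the list, had 198, 158 and 173 FPKM, highest in library 1. By contrast zgc:195633 (hist1h2a11) had 4.54, 17.0 and 14.1 FPKM, lowest in library 1. Histone H4 copies are near-identical, so the split of reads between them is uncertain.

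Gene length moved with library differences to a small degree. After each gene was centred on its mean log2 CPM, the median of library 1 went from -0.08 in the shortest 2767 genes (up to 1463 bp) to 0.10 in the longest 2763 (4333 bp and over). Over the same bins library 3 went from 0.00 to -0.13 and library 2 from 0.07 to -0.01. The long apolipoprotein B gene apobl was highest in library 1, and the summed share of ribosomal protein genes, which are short, was lowest in it. The part of length in these values was not tested.

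The zebrafish carries many genes in 2 copies, usually named a and b. They come from a genome duplication in the ancestor of teleost fishes, the group that includes zebrafish. The table held 1149 pairs of symbols that differ only in a final a or b. In 423 of them the higher copy averaged at least 10 FPKM. The median ratio of higher to lower copy was 3.81, with 109 pairs over 10-fold and 116 at most 2-fold, and the libraries of the copies did not overlap in 368. Pairs were kept through their higher copy, which can raise this ratio and the count without overlap. The same values for all 1149 pairs are not given here. The a copy was higher in 230 pairs and the b copy in 193. Symbols alone define these pairs, so some, like fga and fgb or ppia and ppib, are different genes and not duplicates.

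Some liver enzymes, chosen after their values were seen, came almost wholly from a single copy. Fructose bisphosphatase fbp1b averaged 1410 ± 227 FPKM and fbp1a 15.7 ± 4.12 FPKM (SD, n = 3 each). The purine phosphorylase pnp4b averaged 1021 ± 144 FPKM against 1.51 ± 0.968 FPKM for pnp4a, and the glyoxylate reductase grhprb 872 ± 99.7 FPKM against 4.32 ± 0.590 FPKM for grhpra. Other pairs shared the level more evenly. The selenium carriers sepp1a (selenop) and sepp1b (selenop2) averaged 685 ± 49.8 and 663 ± 77.7 FPKM, and rpl5a and rpl5b 961 ± 58.0 and 1106 ± 98.6 FPKM. The libraries overlapped in both of these pairs. For tryptophan dioxygenase, tdo2a was above tdo2b in every library, with 874, 913 and 1217 FPKM against 231, 205 and 127 FPKM, and tdo2a was lowest in library 1 while tdo2b was lowest in library 3.

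Some abundant genes lie next to each other. Among the 200 nuclear genes of highest mean FPKM and at least 200 bp, 32 fell into 14 groups whose members lie within 50 kb of the next. The same count for other genes is not given here, so this one does not show that abundant genes cluster. Some groups were copies of small structural RNAs, such as U3.35 and U3.16, and others held housekeeping genes, such as rpl3 and rpl27. The group of highest summed level was the apolipoprotein group of apoa4b.1, apoa4b.2, apoc1 and apoc2 on chromosome 16 from 26153363 to 26230454 (Zv9), with 18038 FPKM in sum. The C-reactive protein genes crp2, crp3 and crp5 lie on chromosome 24 from 39585485 to 39615888, with 10814 FPKM in sum. The fibrinogen genes fgb and fga lie on chromosome 1 from 9127847 to 9147623, and the carboxylesterases ces2 and ces3 on chromosome 18 from 17067638 to 17085474. Members of such groups were not at one level: apoc1l was over 10000 FPKM in every library and apoa4b.2 under 1000.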

How the data were processed

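The authors deposited whole-number counts of alignments per gene and FPKM for each library. Per the file headers' column descriptions, an alignment counted when it overlapped a gene by at least 1 bp. The submitters' processing notes name Novoalign, DESeq2 and the Zv9 build, without versions. The deposited log2 values and scores of the authors' transgenic comparison were not used. The deposited FPKM were recomputed from count and length, and matched at library totals of 10900426, 12231747 and 7740785, which exceed the table sums by 15830, 17398 and 8307 counts. Coordinates are Zv9; the table's starts count from 0, and 1 was added.

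Shares were computed with Python 3.11.15, and the biological CV with edgeR 4.0.16 (TMM, intercept only; R 4.3.3). The call of genes over 2-fold and the biological CV were tested on simulated data. The simulation for the 2-fold call held counting error alone and scored abundant genes only, so it does not cover the spread seen here. The CV of FPKM was not tested in this way. Groups of 3 allow means, SDs and ranges, and no test between groups was made. The 49 gene lists and the lists added later were matched by symbol (over all of them, 998 of 1489 names to the table, 188 more to reference names). The members and lists were chosen with earlier results of these data known. Genes named are the 40 of highest mean FPKM, the leading members of each list, regulators, the most and least variable genes, those highest in 1 library, and a/b pairs; others were chosen after their values were seen. Lists of small structural RNAs, other mitochondrial entries, clock genes and immediate early genes were added after the files were read, the last 2 after values were seen. Matching by symbol also took in members that the table or the reference names as other genes, among them CD3EAP (polr1g), c1qtnf3 (AMACR), crygs2 (lcmt2), stab1 (DOCK9), the organic anion transporter oat (SLC22A8), cox4nb (EMC8), the kinase RPS6KL1 and the Argonaute genes (EIF2C). A few genes are not reported here.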

Additional observations from a re-analysis of the deposited data

How the results depend on the processing

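No paired analysis was possible because only 1 group was described. Shares of summed FPKM weigh short genes more: secreted products then took 13.8%, mitochondrially encoded transcripts 8.70%, ribosomal proteins 13.3% and the top 10 entries 18.7%. Without mitochondrial entries and small structural RNAs in the total, an alternative chosen after seeing the data, secreted products took 21.6%. At a floor of 5 FPKM, 6610 genes were present in every library. With at least 1000 summed counts, 339 of 3504 genes were over 2-fold, beside 2419 of 13855 in the main setting. With no filter on low counts the number was 6322, where 21424 genes had at least 1 count in every library. It was 1084 to 1575 when a library was left out, where only 2 libraries are compared. The number of genes tested without a library is not given here. The median CV was 22.6% with no filter, 14.1% with at least 1000 summed counts and 13.6% to 15.02% without a library; the biological CV was 24.5% to 28.5% without a library. Without the bile duct list, apoa4b.2 and lgmn, also chosen after seeing the data, other-tissue markers took 1.37%. In all, 40 of 57 alternatives moved shares by less than the SD between libraries and counts by less than 1.5 times. The library of 7732478 counts limits low genes, with 142 at 0.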
